A study of Rattus norvegicus with 2 samples.

Results

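Wnt ligands, their receptors and the proteins that carry their signal to beta-catenin were followed in RNA of the rat cardiac outflow tract (OFT), the embryonic vessel that is divided into the aorta and the pulmonary artery. The genes were chosen by name: 19 Wnt ligands, 10 Frizzleds and the named genes of ligand processing, the R-spondin axis, the beta-catenin destruction complex, the TCF/LEF factors and the feedback inhibitors. They were 56 of the 37203 genes listed, and Axin1 was not analysed here. The HO library came from Snx17-/- embryos, homozygous for a CRISPR/Cas9 deletion that is present in every tissue and shifts the reading frame in the PX domain, and the WT library came from wild type embryos. Both were Sprague-Dawley rats at E13.5, and each library was 1 RNA sample pooled from the OFTs of 10 embryos. With 1 library per genotype the spread between embryos could not be measured, so no p-value is given and every interval covers counting error only.

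Wnt proteins are secreted lipid-modified ligands that bind Frizzled receptors on neighbouring cells. In the branch that uses beta-catenin, binding holds back a destruction complex that otherwise marks beta-catenin for breakdown, and the protein then enters the nucleus and activates genes together with TCF/LEF factors. In the branch that does not use beta-catenin, ligands such as Wnt5a and Wnt11 act through Ror and Ryk receptors on cell polarity and movement. Both branches are known in the OFT, where Wnt5a and Wnt11 are needed for septation and alignment in mice.

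The counts summed to 9528615 in the HO library and 9321811 in the WT library, so that 3 counts are 0.315 CPM (counts scaled to a common library total) in the HO library and 0.322 CPM in the WT library. Snx17 itself had 994 counts in HO OFTs and 1365 in WT OFTs, a count over the whole gene that gives no value for the deleted stretch. Cardiomyocyte markers were abundant in both libraries, with 10 of 10 tested and a summed level of 23940 CPM in HO OFTs and 21258 in WT OFTs. Cushion mesenchyme markers, 6 of 6 tested, summed to 1172 CPM in HO OFTs and 1286 in WT OFTs. Epicardium markers were the list furthest down, with a sum of 207 CPM in HO OFTs and 351 in WT OFTs. By the rule given next, 2 of 6 were called lower (Tcf21 and Tbx18), 33.3% against 1.18% of all tested genes. Macrophage markers were the list furthest up, with a sum of 29.2 CPM in HO OFTs and 13.9 in WT OFTs. Of these, 1 of 4 tested was called higher (Csf1r), 25.0% against 0.771% of all tested genes. Foxa2 and Nkx2-1 of foregut epithelium and Foxd3 of neural crest were at 0 in both libraries. In pooled tissue, fewer cells of a type and less RNA per cell cannot be told apart, and the part of these shifts in the folds of the Wnt pathway genes was not tested.

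In what follows, a fold is the HO count over the WT count after scaling of the library sizes, given on the log2 scale with its exact 95% interval. A gene was called higher where the whole interval lay above 1.5-fold and lower where it lay below 1/1.5, among the 15426 genes whose HO and WT counts summed to 20 or more. Of the 56 pathway genes 44 passed this filter, 6 had 0 counts in both libraries and 6 had between 1 and 19 counts. Wnt2, a ligand, was called higher (1 of 44, 2.27%, against 0.771% of all tested genes), and Apc2, a member of the destruction complex, was called lower (1 of 44, 2.27%, against 1.18%). Intervals lay wholly above 1 for 8 of the 44 (18.2%, against 20.3% of all tested genes) and wholly below 1 for 13 (29.5%, against 17.0%). The other 23 intervals reached 1.

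Of the 44 folds, 36 (81.8%) lay within 1.5 in either direction, beside 86.2% of all tested genes. The median log2 fold of the 44 genes was −0.05, beside 0.01 over all tested genes, and the values ran from −1.31 for Apc2 to 1.16 for Wnt2. Summed over all 56 genes, beta-catenin included, reads were 32815 in HO OFTs and 33085 in WT OFTs, a log2 fold of −0.03 (interval −0.05 to −0.0049) whose interval reached 1 with DESeq2 size factors. Without regard to the interval, 3 of the 44 had a fold past 1.5 upward (Wnt2, Rspo3 and Cacybp, beside 6.27% of all tested genes) and 5 downward (Apc2, Lgr5, Wnt2b, Fzd8 and Rspo1, beside 7.51%). The pathway genes had a median of 500.5 counts over both libraries, beside 446 for all tested genes.

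**Figure D1:**
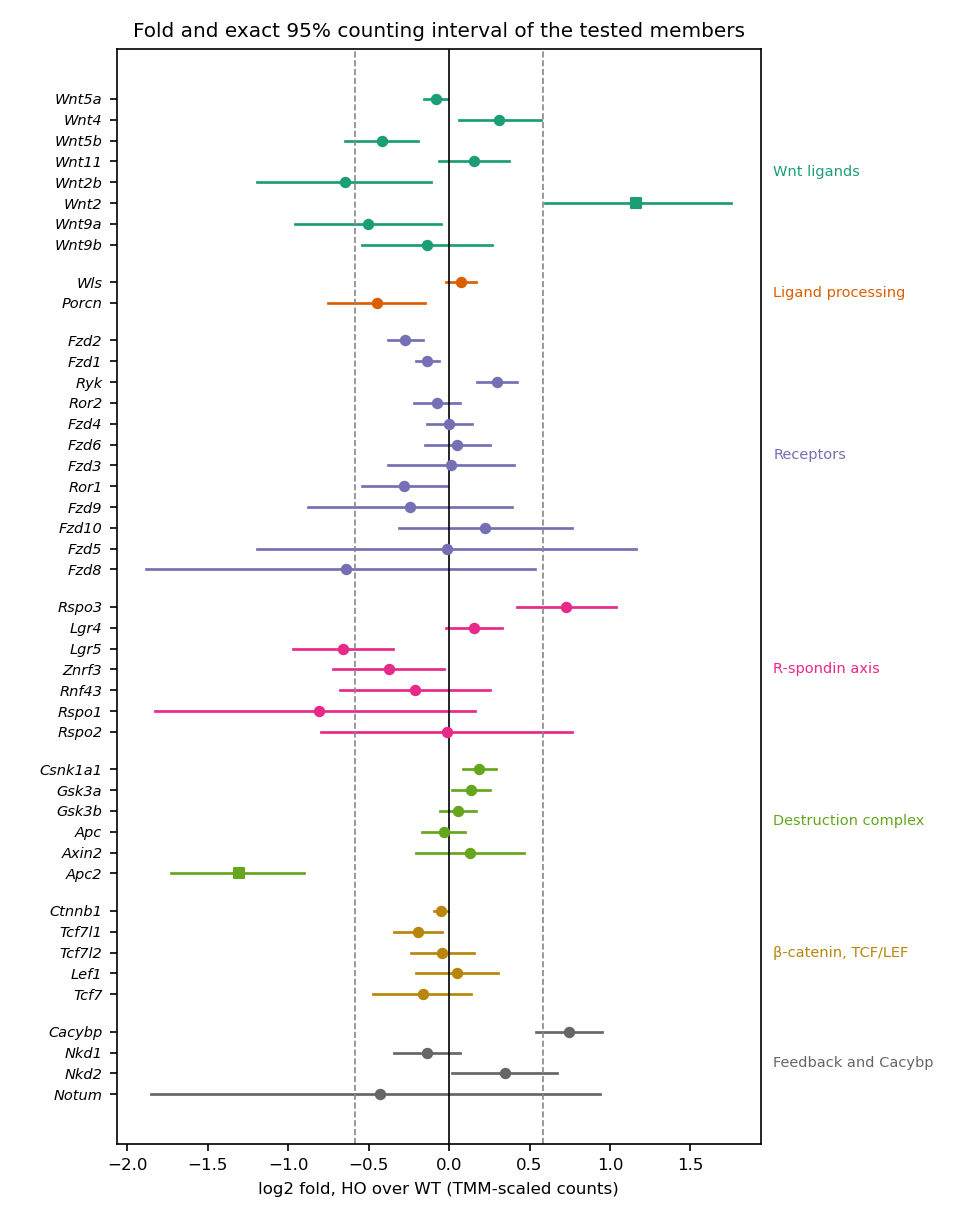
Log2 fold of HO over WT for the 44 genes past the filter, grouped by role, with exact 95% counting intervals as horizontal lines. Dashed lines mark 1.5-fold in either direction and squares mark the called genes, Wnt2 at 1.16 and Apc2 at −1.31.

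Promoter sequences are shown for the called genes and for 3 genes of the pathway's own feedback or transcription whose promoters hold a motif bound by TCF/LEF factors. A promoter here is the stretch from 250 bases before to 50 bases after the start in RefSeq (assembly GRCr8), and 46 of the 56 genes matched one. The motif searched was CTTTGAA or CTTTGAT or CTTTGTA or CTTTGTT on both strands, and capitals mark each match.
Wnt2 (chr4:47340235-47340534, minus strand): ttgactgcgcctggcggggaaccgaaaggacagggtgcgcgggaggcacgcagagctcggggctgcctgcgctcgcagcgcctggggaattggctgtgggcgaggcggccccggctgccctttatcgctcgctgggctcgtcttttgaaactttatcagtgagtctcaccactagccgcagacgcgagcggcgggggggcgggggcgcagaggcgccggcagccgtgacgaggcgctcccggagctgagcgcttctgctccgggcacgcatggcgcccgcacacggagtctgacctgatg
Apc2 (chr7:10059296-10059595, minus strand): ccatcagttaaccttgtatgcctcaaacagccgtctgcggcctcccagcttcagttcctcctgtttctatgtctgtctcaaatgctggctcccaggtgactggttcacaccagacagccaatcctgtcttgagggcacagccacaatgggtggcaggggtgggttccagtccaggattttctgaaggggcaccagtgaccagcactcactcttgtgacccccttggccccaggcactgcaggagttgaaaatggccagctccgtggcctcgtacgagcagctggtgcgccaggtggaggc
Axin2 (chr10:94398535-94398834, plus strand): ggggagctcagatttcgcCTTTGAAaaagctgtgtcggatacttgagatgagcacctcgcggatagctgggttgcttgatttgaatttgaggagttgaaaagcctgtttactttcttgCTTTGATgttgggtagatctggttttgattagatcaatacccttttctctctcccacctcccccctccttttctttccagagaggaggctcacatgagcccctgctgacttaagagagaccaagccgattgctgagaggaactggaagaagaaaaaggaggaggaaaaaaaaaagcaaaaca
Nkd1 (chr19:34722797-34723096, minus strand): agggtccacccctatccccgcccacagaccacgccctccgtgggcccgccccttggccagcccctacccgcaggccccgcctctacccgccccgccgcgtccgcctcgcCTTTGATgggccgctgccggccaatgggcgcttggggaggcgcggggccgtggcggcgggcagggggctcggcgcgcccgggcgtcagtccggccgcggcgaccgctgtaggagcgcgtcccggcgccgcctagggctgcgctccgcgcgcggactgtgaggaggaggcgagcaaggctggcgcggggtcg
Tcf7 (chr10:36954230-36954529, minus strand): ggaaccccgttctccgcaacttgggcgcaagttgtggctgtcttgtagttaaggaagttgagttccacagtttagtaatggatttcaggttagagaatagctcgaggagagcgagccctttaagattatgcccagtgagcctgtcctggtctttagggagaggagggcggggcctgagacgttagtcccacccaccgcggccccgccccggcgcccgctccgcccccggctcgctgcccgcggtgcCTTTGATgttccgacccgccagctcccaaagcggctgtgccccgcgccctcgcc

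The motif stood in 7 of the 46 promoters (15.2%), beside 4619 of all 27457 promoters of this length (16.8%). Those 7 were Axin2 with 2 matches and Fzd7, Gsk3a, Nkd1, Tcf7, Wnt3 and Wnt8a with 1 each. The Axin2 matches began 232 and 132 bases before the start, that of Nkd1 141 bases before it and that of Tcf7 4 bases before it. Neither called gene had a match in its window. In the Apc2 window the start falls on an ATG that opens a reading frame through the 50 bases after it. That start may be one of translation, so the window may not hold the Apc2 promoter. The promoters of the pathway genes were rich in G and C, with a median of 65.3% beside 52.3% over all promoters, and held a median of 25.5 CpG pairs beside 7. The Wnt2 promoter was 70.0% G and C and the Apc2 window 58.3%.

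Of the 19 ligands, 13 had at least 1 count and 8 passed the filter. Of these 8, 1 was called higher, against 0.771% of all tested genes. Intervals lay above 1 for 2 of the 8, against 20.3% of all tested genes, and below 1 for 4, against 17.0%. The median log2 fold of the 8 was −0.11. On the RPKM scale, which divides counts by gene length and library total, Wnt5a was the most abundant in both libraries at 73.3 RPKM in HO OFTs and 78.5 RPKM in WT OFTs. It made up 54.5% of the summed ligand RPKM in HO OFTs and 55.6% in WT OFTs. Its log2 fold was −0.08 (3189 counts in HO OFTs, 3343 in WT OFTs, interval −0.15 to −0.01), and the interval reached 1 with DESeq2 size factors or after centring by gene length.

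Wnt2 was the ligand called higher. It had 86 counts (4.10 RPKM) in HO OFTs and 38 counts (1.85 RPKM) in WT OFTs, a fold of 2.24 with an interval from 1.51 to 3.37. The lower bound stood just past the threshold. The call was lost when libraries were scaled by their totals, which dividing RPKM values repeats, by upper quartiles, or when folds were centred on gene length. There the log2 fold stayed between 1.12 and 1.15. The call was also lost with the wider intervals and the 2-fold threshold. In mice Wnt2 acts in the inflow region of the developing heart.

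Its close relative Wnt2b lay on the other side of 1, with 49 counts in HO OFTs and 76 in WT OFTs (log2 fold −0.65, interval −1.20 to −0.11). Wnt2 thus provided 63.7% of the Wnt2 and Wnt2b reads in HO OFTs (exact 95% interval 54.99 to 71.8) and 33.3% in WT OFTs (24.8 to 42.8), and these intervals did not overlap. This share is taken within a library and does not depend on the scaling between libraries. Per gene length, Wnt2 at 4.10 RPKM (3.28 to 5.06) and Wnt2b at 2.90 RPKM (2.14 to 3.83) overlapped in HO OFTs, whereas Wnt2 at 1.85 RPKM (1.31 to 2.54) stood below Wnt2b at 4.60 RPKM (3.62 to 5.75) in WT OFTs.

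Wnt4, a ligand of kidney and gonad development, was the second ligand by level, with 25.1 RPKM in HO OFTs and 20.5 RPKM in WT OFTs (290 and 231 counts). Its interval lay above 1 (log2 fold 0.31, interval 0.06 to 0.57), except after centring by gene length. The level interval of Wnt4 overlapped that of Wnt5b in WT OFTs (17.9 to 23.3 and 17.0 to 20.9 RPKM). In HO OFTs the level interval of Wnt4 lay above that of Wnt5b (22.3 to 28.2 and 12.4 to 15.7 RPKM). Wnt5b, the relative of Wnt5a, had 282 counts in HO OFTs and 373 in WT OFTs (log2 fold −0.42, interval −0.65 to −0.19). Wnt5b provided 8.12% of the Wnt5a and Wnt5b reads in HO OFTs (7.24 to 9.08) and 10.04% in WT OFTs (9.09 to 11.05), intervals that nearly touched. Wnt11 followed at 10.4 RPKM in HO OFTs and 9.43 RPKM in WT OFTs, with an interval that reached 1 (376 and 334 counts, log2 fold 0.16, interval −0.06 to 0.37).

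Below these 4 ligands, the levels of Wnt2, Wnt2b, Wnt9a and Wnt9b ran from 1.85 to 4.60 RPKM over both libraries. Wnt9a, known from joint development, had 72 counts in HO OFTs and 101 in WT OFTs (log2 fold −0.50, interval −0.96 to −0.05). Wnt9b, a ligand of kidney and face, had 102 counts in HO OFTs and 111 in WT OFTs (interval −0.54 to 0.26). In HO OFTs the RPKM intervals of Wnt2b, Wnt9b and Wnt9a all overlapped, within 1.76 to 3.83 RPKM. There Wnt2 (3.28 to 5.06 RPKM) overlapped Wnt2b but lay above Wnt9b (1.87 to 2.79 RPKM) and Wnt9a (1.76 to 2.84 RPKM). In WT OFTs each of Wnt2b, Wnt9a, Wnt9b and Wnt2 overlapped its neighbour in level, but Wnt2 at the low end (1.31 to 2.54 RPKM) did not reach Wnt9a (2.63 to 3.93 RPKM).

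The remaining 11 ligands were at the edge of detection. Wnt16 had 2 counts in HO OFTs and 17 in WT OFTs, a ratio of 0.116 with a counting interval from 0.0130 to 0.490, and at 19 counts in all it was 1 short of the filter. Its values were singled out after they were seen. Wnt7a had 4 counts in HO OFTs and 8 in WT OFTs. Wnt3, Wnt8b and Wnt7b were at 0 in HO OFTs and at 4, 2 and 1 counts in WT OFTs. Wnt1, Wnt3a, Wnt6, Wnt8a, Wnt10a and Wnt10b were at 0 in both, for which an expected count of up to 3 in each library was taken as possible.

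**Figure D2:**
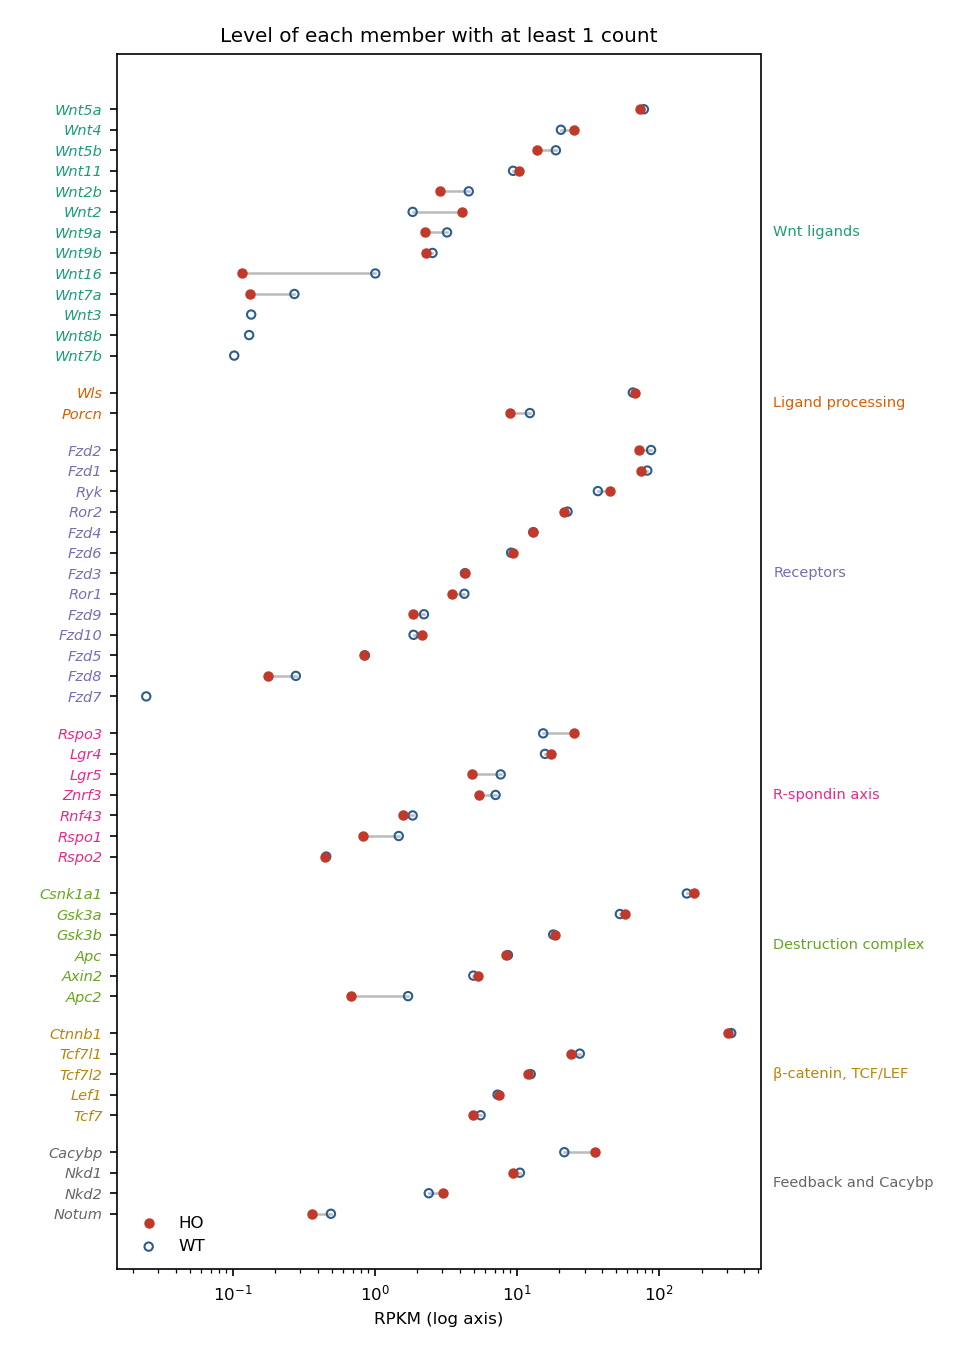
RPKM of the 50 genes with at least 1 count in either library, on a log axis, with filled points for HO and open points for WT, grouped by role and ordered by mean level. Beta-catenin (Ctnnb1) stands highest at 309 RPKM in HO OFTs and 323 RPKM in WT OFTs, and a gene at 0 in HO OFTs has an open point alone.

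The genes for ligand processing were moderately to highly expressed. Wls, the carrier that takes Wnt proteins to the cell surface, had 68.3 RPKM in HO OFTs and 65.7 RPKM in WT OFTs (1878 and 1767 counts), and its interval reached 1 (log2 fold 0.07, interval −0.02 to 0.17). Porcn, the enzyme that attaches the lipid, stood lower, at 8.96 RPKM in HO OFTs and 12.4 RPKM in WT OFTs. It had 162 counts in HO OFTs and 219 in WT OFTs (log2 fold −0.45, interval −0.75 to −0.15), below 1 in each of the 6 scalings tried.

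None of the 12 receptors past the filter was called in either direction, and their median log2 fold was −0.05. Of the 12, 1 had an interval above 1 (8.33%, against 20.3% of all tested genes) and 3 below (25.0%, against 17.0%). Fzd1 and Fzd2 led the Frizzleds, and their level intervals overlapped within each library. Fzd1 had 74.7 RPKM (72.1 to 77.4) and Fzd2 72.2 RPKM (68.4 to 76.2) in HO OFTs, while in WT OFTs Fzd1 had 83.0 RPKM (80.2 to 85.8) and Fzd2 88.2 RPKM (83.9 to 92.7). Fzd2 had 1315 counts in HO OFTs and 1571 in WT OFTs (log2 fold −0.27, interval −0.38 to −0.17). Fzd1 had 3131 counts in HO OFTs and 3402 in WT OFTs (log2 fold −0.13, interval −0.21 to −0.06). Summed over the 10 Frizzleds, reads were 5954 in HO OFTs and 6454 in WT OFTs, a log2 fold of −0.13 (interval −0.18 to −0.08).

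Fzd7 could not be read from the gene row of that name, which had 0 counts in HO OFTs and 1 in WT OFTs and whose annotation matched Cdk15 best. The row LOC100360552 carried the reads. Its best match in the file was Fzd7, and RefSeq gives its gene identifier the symbol Fzd7. It had 437 counts (16.3 RPKM) in HO OFTs and 572 counts (21.8 RPKM) in WT OFTs, a log2 fold of −0.40 (interval −0.59 to −0.22), so its interval lay below 1 as those of Fzd1 and Fzd2 did. This row was not among the 56 genes and was looked up after its values were seen. With it, LOC100360552 came next after Fzd1 and Fzd2 in level among Frizzleds and held 8.35% of their summed RPKM in HO OFTs and 9.68% in WT OFTs.

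The other 7 Frizzleds past the filter had intervals that reached 1, which does not show equal levels. Fzd4, a receptor of vessel growth, had 845 counts in HO OFTs and 835 in WT OFTs (interval −0.14 to 0.14). Fzd6, a polarity receptor, had 418 in HO OFTs and 399 in WT OFTs (interval −0.15 to 0.25). Fzd3 had 113 counts in HO OFTs and 111 in WT OFTs (interval −0.38 to 0.40). Fzd9, Fzd10, Fzd5 and Fzd8 had between 11 and 66 counts in each library, with intervals that reached 1.

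Among the receptors outside the Frizzleds, Ryk, a kinase-like Wnt receptor, was the one receptor with an interval above 1. It had 1184 counts (45.2 RPKM) in HO OFTs and 954 counts (37.3 RPKM) in WT OFTs (log2 fold 0.30, interval 0.17 to 0.42). Ror2, the receptor for Wnt5a, had 803 counts in HO OFTs and 837 in WT OFTs (interval −0.22 to 0.07). Ror1 had 220 counts in HO OFTs and 264 in WT OFTs (log2 fold −0.28, interval −0.54 to −0.01), which reached 1 with DESeq2 size factors or after centring by gene length. The share of Ror1 in the Ror reads, 21.5% in HO OFTs and 24.0% in WT OFTs, had overlapping intervals.

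**Figure D3:**
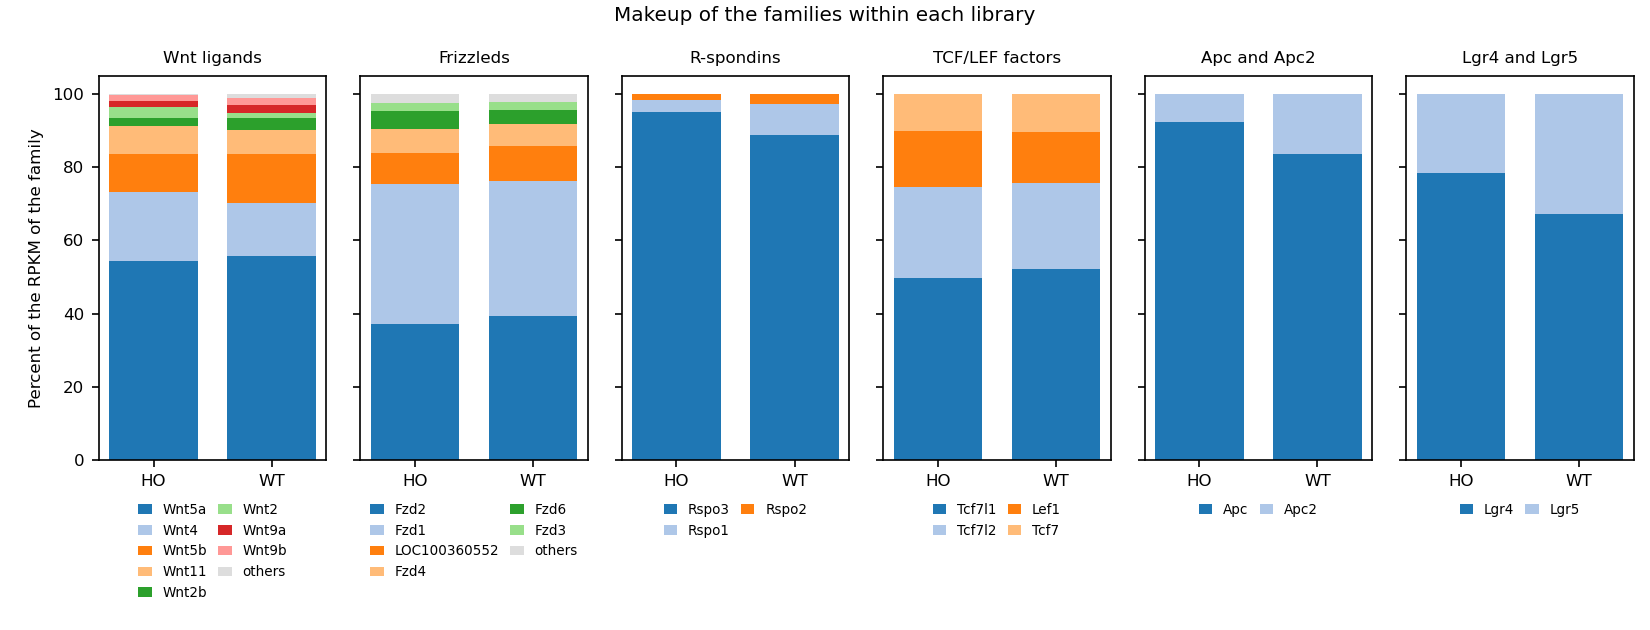
Percent of the summed RPKM of each family that its members held within the HO and the WT library, as stacked bars. Apc2 takes 7.58% of the Apc pair in HO OFTs and 16.5% in WT OFTs, and Lgr5 takes 21.7% of the Lgr pair in HO OFTs and 32.8% in WT OFTs.

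R-spondins strengthen Wnt signals by binding Lgr receptors and removing the ligases Znrf3 and Rnf43, which clear Frizzleds from the membrane. None of the 7 genes of this axis was called, and their median log2 fold was −0.21. Rspo3, an R-spondin of blood vessel development in mice, had 241 counts (25.1 RPKM) in HO OFTs and 144 counts (15.4 RPKM) in WT OFTs. This was a fold of 1.66, with an interval from 1.34 to 2.05 that lay above 1 but not above 1.5. Rspo3 provided 84.3% of the R-spondin reads in HO OFTs (79.5 to 88.3) and 72.0% in WT OFTs (65.2 to 78.1), and the intervals did not overlap.

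Of the R-spondin receptors, Lgr5 had an interval below 1 and Lgr4 one that reached 1. Lgr5, a stem cell marker in gut epithelium, had 144 counts (4.83 RPKM) in HO OFTs and 225 counts (7.71 RPKM) in WT OFTs, a fold of 0.633 (interval 0.510 to 0.784). Lgr4, the more widely expressed receptor, had 580 counts in HO OFTs and 515 in WT OFTs, and its interval reached 1 (log2 fold 0.16, interval −0.02 to 0.33). Lgr5 provided 19.9% of the Lgr reads in HO OFTs (17.0 to 23.0) and 30.4% in WT OFTs (27.1 to 33.9), intervals that did not overlap. Znrf3 had 127 counts in HO OFTs and 163 in WT OFTs (log2 fold −0.38, interval −0.72 to −0.03), and the intervals of Rnf43, Rspo1 and Rspo2, with 15 to 86 counts in each library, reached 1.

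In the destruction complex, Apc2 was the gene called lower, and the other members had folds between 0.976 and 1.14. Apc2, a relative of Apc known mainly from neurons, had 71 counts (0.686 RPKM) in HO OFTs and 174 counts (1.72 RPKM) in WT OFTs, a fold of 0.404 (interval 0.302 to 0.535). The call was kept in each of the 6 scalings and lost with an assumed coefficient of variation of 0.2 or a 2-fold threshold. Apc had 938 counts in HO OFTs and 951 in WT OFTs (log2 fold −0.04, interval −0.17 to 0.10), so Apc2 provided 7.04% of the Apc and Apc2 reads in HO OFTs (5.54 to 8.79) and 15.5% in WT OFTs (13.4 to 17.7). Neuron markers, of which 5 of 6 passed the filter, summed to 128 CPM in HO OFTs and 129 in WT OFTs, a sum that was mostly Stmn2 (1096 counts in HO OFTs and 1020 in WT OFTs). Their median log2 fold was −0.44, and 2 of the 5 intervals lay below 1 (40.0%, against 17.0% of all tested genes). These were the intervals of Tubb3 (84 counts in HO OFTs and 113 in WT OFTs) and of Dcx (3 counts in HO OFTs and 28 in WT OFTs). Dcx was the 1 of 5 called lower, against 1.18% of all tested genes. The folds of 2 of the 5 lay above 1, those of Stmn2 and Elavl3, with intervals that reached 1. Elavl3 had 17 counts in HO OFTs and 8 in WT OFTs (log2 fold 1.07, interval −0.22 to 2.49). None of the 6 neuron markers was at 0 in both. Their part in the Apc2 fold was not tested.

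Csnk1a1 and the Gsk3 kinases phosphorylate beta-catenin. Csnk1a1 had 1640 counts (177 RPKM) in HO OFTs and 1425 counts (157 RPKM) in WT OFTs (log2 fold 0.19, interval 0.08 to 0.29), and the interval reached 1 after centring by gene length. Gsk3a had 1198 counts in HO OFTs and 1078 in WT OFTs (log2 fold 0.14, interval 0.02 to 0.26), which reached 1 with upper-quartile factors or after centring by gene length. Gsk3b had 1340 counts in HO OFTs and 1277 in WT OFTs, with an interval that reached 1. Axin2, the scaffold that is itself a target of beta-catenin and whose promoter held 2 TCF/LEF motifs, had 159 counts in HO OFTs and 144 in WT OFTs (log2 fold 0.13, interval −0.21 to 0.46).

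Beta-catenin, encoded by Ctnnb1, was the most abundant RNA of the pathway genes, with 8949 counts (309 RPKM) in HO OFTs and 9168 counts (323 RPKM) in WT OFTs. Its log2 fold was −0.05 (interval −0.09 to −0.0079), and it reached 1 with DESeq2 size factors. Ctnnb1 also binds cadherins at cell junctions, and its RNA gives no value for the protein that the destruction complex acts on. Tcf7l1, a TCF factor that mostly represses, was the highest of the TCF/LEF factors by RPKM, with 699 counts (24.1 RPKM) in HO OFTs and 790 counts (27.8 RPKM) in WT OFTs (log2 fold −0.19, interval −0.34 to −0.04). Tcf7l2, Lef1 and Tcf7 followed in this order of RPKM in both libraries, with 432, 264 and 173 counts in HO OFTs and 440, 253 and 192 counts in WT OFTs, and all 3 intervals reached 1.

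Among the feedback inhibitors, Nkd1 and Nkd2, which bind Dishevelled, were both moderately expressed. Nkd2 had 181 counts in HO OFTs and 141 in WT OFTs (log2 fold 0.35, interval 0.02 to 0.67), an interval that reached 1 with upper-quartile factors or after centring by abundance. Nkd1, a target of beta-catenin in many tissues, had 377 counts in HO OFTs and 410 in WT OFTs (log2 fold −0.14, interval −0.34 to 0.07). Notum, an enzyme that removes the lipid from Wnt proteins, had 9 counts in HO OFTs and 12 in WT OFTs. Cacybp, a calcyclin-binding protein that takes part in another route of beta-catenin breakdown, had 520 counts (35.8 RPKM) in HO OFTs and 307 counts (21.6 RPKM) in WT OFTs, a fold of 1.68 with an interval from 1.45 to 1.94 that began just under 1.5.

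**Figure D4:**
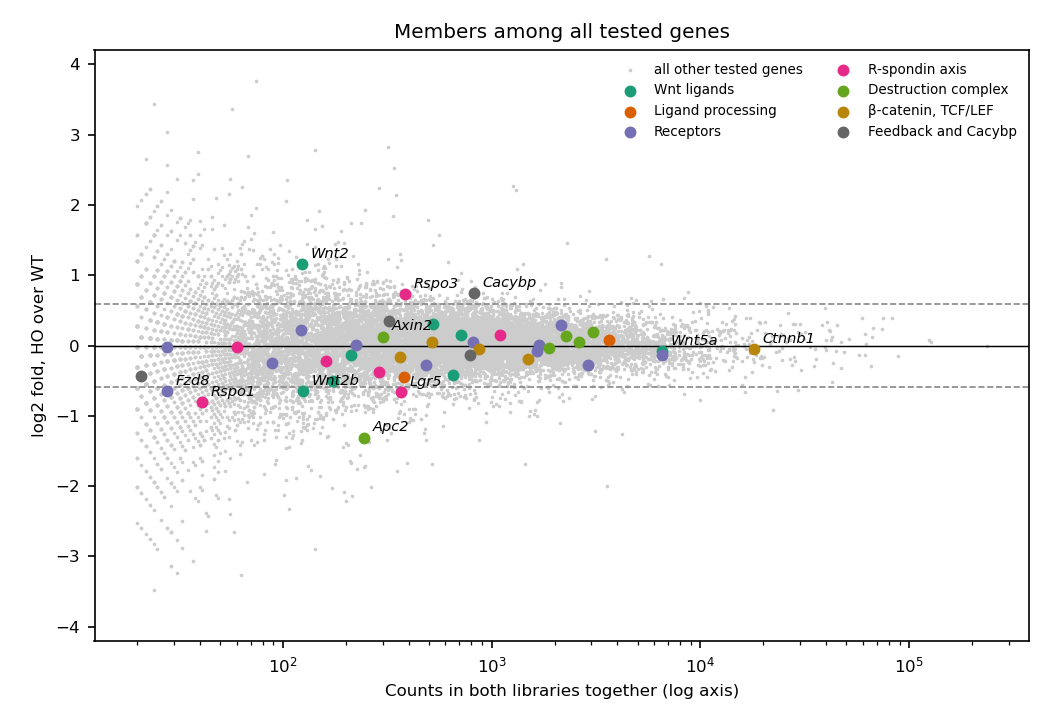
Log2 fold of HO over WT against the counts of both libraries together, on a log axis, for all 15426 tested genes in grey and the 44 pathway genes in colour by role. Dashed lines mark 1.5-fold, and most coloured points lie between them, with Wnt2 above at 1.16 and Apc2 below at −1.31.

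Genes of the pathway outside these 56 were counted from lists by role. None of 12 co-receptor and Dishevelled genes was called, none had an interval above 1 and 6 had one below 1, with a median log2 fold of −0.14. Among them Lrp5, the Wnt co-receptor, had 2060 counts in HO OFTs and 2597 in WT OFTs (log2 fold −0.35, interval −0.43 to −0.27), and the kinase Csnk1d had 2098 in HO OFTs and 2390 in WT OFTs. Of 13 further genes of beta-catenin turnover none was called. Their intervals lay above 1 for 3 (23.1%, against 20.3% of all tested genes) and below 1 for 3 (23.1%, against 17.0%). The turnover gene with most reads was Ppp2r1a, with 3228 counts in HO OFTs and 3411 in WT OFTs. Tnks came next, with 2807 in HO OFTs and 3006 in WT OFTs. Of 18 nuclear cofactors none was called. Their intervals lay above 1 for 3 (16.7%, against 20.3% of all tested genes) and below 1 for 7 (38.9%, against 17.0%). The cofactors with most reads were Smarca4 with 3876 counts in HO OFTs and 4028 in WT OFTs and Tbl1x with 1565 in HO OFTs and 1400 in WT OFTs.

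The secreted antagonists, which bind Wnt ligands or their receptors, were the only one of these 6 lists with called genes. Of 11 past the filter, 1 was called higher (9.09%, against 0.771% of all tested genes), namely Sfrp5 with 47 counts in HO OFTs and 17 in WT OFTs. Another 2 were called lower (18.2%, against 1.18%), namely Frzb with 565 counts in HO OFTs and 1051 in WT OFTs and Sfrp2 with 421 in HO OFTs and 800 in WT OFTs. The median log2 fold of the 11 was −0.22. None of 15 planar cell polarity genes was called, with 1 interval above 1 (6.67%, against 20.3% of all tested genes) and 7 below (46.7%, against 17.0%). Those with most reads were Ptk7 with 5144 counts in HO OFTs and 6539 in WT OFTs (log2 fold −0.36, interval −0.41 to −0.31) and Scrib with 1932 in HO OFTs and 2015 in WT OFTs.

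Known target genes of beta-catenin outside the 56 were counted in the same way. None of the 16 past the filter was called, and the median log2 fold was −0.03, beside 0.01 over all tested genes. Intervals lay above 1 for 3 (18.75%, against 20.3% of all tested genes) and below 1 for 4 (25.0%, against 17.0%). Ccnd1, a cyclin of the first gap phase, had 2236 counts in HO OFTs and 1832 in WT OFTs (log2 fold 0.27, interval 0.18 to 0.36). Bambi, a decoy receptor of BMP signals, had 1907 counts in HO OFTs and 1806 in WT OFTs, with an interval that reached 1. Among the 56, genes known as targets themselves include Axin2, Nkd1, Lef1, Tcf7, Lgr5 and Znrf3. They were picked by name and are not a full list, so no share of them is given. Of these, Lgr5 and Znrf3 had intervals below 1 (log2 folds −0.66 and −0.38), and those of Axin2, Nkd1, Lef1 and Tcf7 reached 1.

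**Figure D5:**
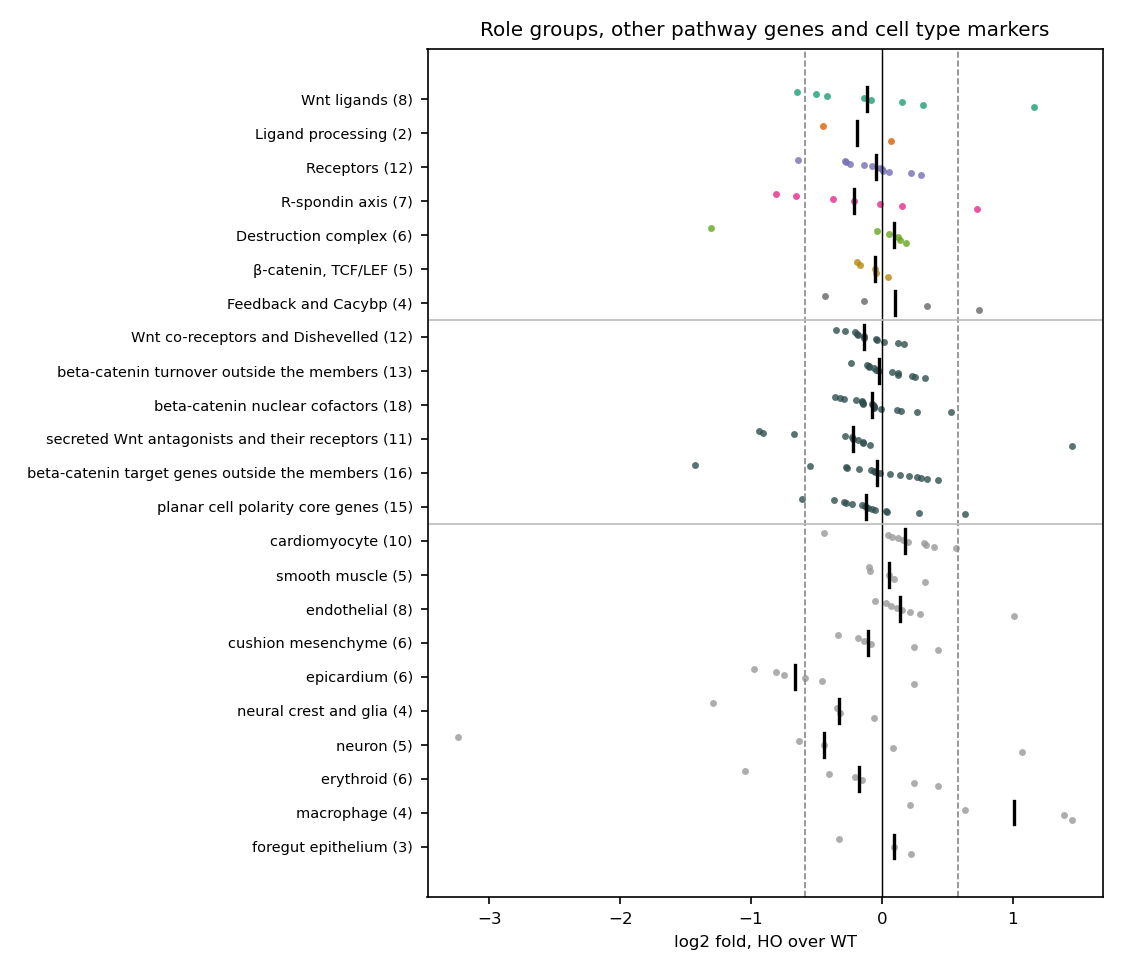
Log2 fold of HO over WT for each tested gene (points) and the median (black bar) of the role groups, of other pathway lists and of cell type markers, with the number of tested genes in brackets. Dashed lines mark 1.5-fold. The medians of the role groups lie between −0.21 and 0.10, those of epicardium and macrophage markers at −0.67 and 1.01.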

How the data were processed

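The authors prepared single-end libraries with an Ion Total RNA-Seq Kit, cleaned the reads and used MapSplice for alignment against Rnor 6.0. They deposited raw counts per gene and RPKM values made from the same counts. For the counting tool, annotation and strand setting, nothing is given in the sources used here. The column headers name another stage, and E13.5 was taken from the labels.

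Library sizes were scaled with TMM (edgeR 4.0.16 in R 4.3.3, HO over WT 1.01). Folds and Clopper-Pearson intervals were computed in Python 3.11.15 with scipy 1.17.1. Models that need replicates could not be fitted. Alternatives were size factors from DESeq2 1.42.0, upper-quartile factors, library totals, the ratio of RPKM values, lowess centring by abundance or gene length, no filter, at least 100 counts, 99% intervals, assumed coefficients of variation of 0.1 and 0.2, a 2-fold threshold and summed copies. Shares were compared in 12 families and pairs. They use the same reads as the folds and are no separate evidence. Their intervals overlapped between libraries for the TCF/LEF factors and for the Gsk3, Ror and Nkd pairs. Genes are named where called, where the interval lay on one side of 1, or as the 3 highest of a role by RPKM. The other members are named to account for each. Other lists name called genes or the 2 with most reads. The members and lists were chosen with earlier results of these data known. Promoters came from RefSeq.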

Additional observations from a re-analysis of the deposited data

How the results depend on the processing

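All 21 genes with an interval on one side of 1 kept their sign under each of the 13 alternatives, but only the 6 scalings and centrings could change a sign. Of the 21, 14 kept the interval off 1 in all 6 scalings and centrings. The RPKM ratio repeats the scaling by totals, so these 6 are not all distinct. The number of genes called higher was 0 instead of 1, with Wnt2 lost, under scaling by totals or upper quartiles, the RPKM ratio, centring by gene length, the 99% interval, an assumed coefficient of variation of 0.1 or 0.2, and the 2-fold threshold. The number called lower was 2 without a filter, where Wnt16 entered, and 0 with a coefficient of variation of 0.2 or the 2-fold threshold, where Apc2 was lost. Intervals above 1 numbered 5 at 99%, 3 at a coefficient of variation of 0.1 and 1 at 0.2, instead of 8, and intervals below 1 numbered 6, 2 and 1 in the same settings, instead of 13. The last settings widen each interval by construction. The log2 fold of the summed reads was −0.051 with upper-quartile factors, instead of −0.03, and its interval reached 1 with DESeq2 size factors, at 99% and with either coefficient of variation. No paired analysis was possible because there was 1 library per genotype, and for the same reason no replicate could be left out. The depth limits all genes under the filter. For a gene at 0 an expected count of up to 3 was taken as possible, a set floor and not the exact interval.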

Other observations

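Several Wnt genes lie side by side in the rat genome, with 0 coding genes between them in RefSeq. Wnt3 had 0 counts in HO OFTs and 4 in WT OFTs, next to Wnt9b with 102 counts in HO OFTs and 111 in WT OFTs. Wnt3a had 0 counts in both libraries, next to Wnt9a with 72 counts in HO OFTs and 101 in WT OFTs. The neighbours Wnt1 and Wnt10b, and likewise Wnt6 and Wnt10a, had 0 counts in both libraries. The row LOC100909849, whose best match in the file was Fzd8, had 5 counts in HO OFTs and 9 in WT OFTs, which with Fzd8 made 16 in HO OFTs and 26 in WT OFTs (log2 fold −0.72, interval −1.71 to 0.24).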
